A study of Mus musculus with 24 samples.

Results

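Nuclear RNA of hippocampal neurons was compared between 3 libraries labelled Mutyh-/- and 3 WT libraries, and every gene that passed a filter on low counts was taken, 30132 of the 55254 genes counted. The mice were C57BL/6N males aged 6 months, whose nuclei had been sorted with an antibody against NeuN, a protein of most mature neurons encoded by Rbfox3. Mutyh-/- mice carry a knockout of Mutyh, Ogg1-/- mice one of Ogg1, DKO mice carry both by crossing, and WT mice served as control for all of them. Besides the 6 libraries compared, 3 Ogg1-/- and 3 DKO libraries of NeuN+ nuclei entered the same fit, and 3 WT and 3 Mutyh-/- libraries of the NeuN- nuclei, mostly glia, were used to see whether a difference was shared. The methods describe nuclei pooled from 3 animals per genotype, so that p-values measure the spread between these libraries, which may be technical. NeuN+ and NeuN- libraries were run on separate lanes, and lane and fraction cannot be told apart.

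Mutyh is a DNA glycosylase of base excision repair, the pathway that removes single damaged bases. When guanine is oxidized to 8-oxoguanine, polymerases often place an adenine opposite to it, and Mutyh cuts out that adenine, whereas Ogg1 removes the 8-oxoguanine itself from a pair with cytosine. Neurons burn much oxygen, do not divide and live for the lifetime of the animal, so that oxidative base damage and its repair have long been studied in the hippocampus, which forms spatial memories.

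Total counts lay between 64759050 and 67220387 per WT library and between 56563586 and 78760380 per Mutyh-/- library. The 8 neuron markers, Rbfox3 and Snap25 among them, summed to 5707 to 5976 CPM (counts scaled to the TMM-adjusted library size) in WT and to 6046 to 6742 in Mutyh-/-, with no overlap. Their median log2 was 0.06, and 6 of the 8 were above 0. At an unadjusted p under 0.05, 3 were higher (9.48% of all genes were) and 2 were lower (9.21%). The sums of 6 astrocyte markers were 273 to 328 CPM in WT and 267 to 276 in Mutyh-/-. The part of the neuron marker difference in the results was not tested. Mutyh-/- replicate 3 stood apart from the other 2: on the first principal component of the NeuN+ libraries it lay at 4.37, and the others at 17.9 and 20.4, with the WT libraries between -19.1 and -7.34.

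The RNA of the deleted gene went against the label. Mutyh, on chromosome 4 of GRCm38 from 116807723 to 116819440, had 1.05, 1.18 and 1.18 CPM in the WT libraries and 10.6, 10.7 and 9.06 in those labelled Mutyh-/-, and the groups did not overlap. Ogg1-/- libraries, with 1.29, 1.04 and 1.27 CPM, were at the WT level, and DKO libraries had 7.74, 8.39 and 11.1. The log2 fold change of Mutyh-/- over WT was 3.15 with a standard error of 0.15 (adjusted p = 2.34e-08 by edgeR's quasi-likelihood test, Benjamini-Hochberg over all genes). A count per gene carries no exon, so a transcript of a disrupted allele and an intact one cannot be told apart, and genotypes below are those of the labels. Toe1, which encodes an exonuclease that trims the ends of small nuclear RNAs, is the divergent neighbour of Mutyh and was also higher. It had 3.36, 3.98 and 3.62 CPM in WT and 6.46, 6.38 and 4.94 in Mutyh-/- (log2 0.69, standard error 0.13, adjusted p = 0.0251, edgeR's quasi-likelihood test), a call that held in 1 of the 6 fits that each left out 1 library.

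The starts of Mutyh and Toe1 face each other across 82 bases, and their shared promoter is shown because both genes read from it were higher. The window, chr4:116807484-116807783 on the plus strand, runs from 250 bases before to 50 after the RefSeq start of Mutyh, and capitals mark the bases between the annotated starts of both genes. It holds 31 CG dinucleotides and 65% G or C, beside medians of 7 and 52.7% over 32851 RefSeq promoters of this length.
Mutyh promoter: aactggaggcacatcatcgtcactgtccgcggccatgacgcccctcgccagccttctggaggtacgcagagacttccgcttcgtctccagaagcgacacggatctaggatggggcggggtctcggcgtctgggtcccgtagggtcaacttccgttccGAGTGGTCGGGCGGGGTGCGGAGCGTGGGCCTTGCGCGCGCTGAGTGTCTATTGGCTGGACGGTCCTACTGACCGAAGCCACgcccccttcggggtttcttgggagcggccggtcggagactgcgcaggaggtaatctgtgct

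Across all genes, 129 of 30132 were differentially expressed (DEGs), which is 0.428%. For a DEG the log2 fold change had to exceed 0.5 in size with an adjusted p below 0.05. Higher in Mutyh-/- were 89 genes (0.295%) and lower were 40 (0.133%), and with library sizes in place of TMM factors the split was 80 to 66. The RNA of 5633 genes (18.7%) differed at an unadjusted p under 0.05, in nearly equal numbers up (2858) and down (2775), and 193 (0.641%) passed the adjusted threshold at any size. In all 129 DEGs the 3 Mutyh-/- and 3 WT libraries did not overlap, which held for 21.1% of all genes tested (10.3% higher, 10.8% lower). The number of DEGs rested on replicate 3. Without it, 837 genes were called, 410 higher and 427 lower, and 126 of the 129 were among them. Leaving out WT replicate 1, 2 or 3 gave 63, 62 or 91, and leaving out Mutyh-/- replicate 1 or 2 gave 68 or 75.

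The DEGs were unevenly spread along the genome. Of the 126 with a known position, 58 lay in 8 groups of 3 or more with gaps of at most 1 Mb, 14 in 7 pairs, and 54 had no other DEG within 1 Mb. The groups held most of the large differences, 44 of the 63 DEGs with an absolute log2 above 1, and most of those also called in the same direction in NeuN- nuclei, 37 of 42. In NeuN-, 0.273% of 31863 genes were called. Of the 54 DEGs that stood alone, 1 was called there. Many grouped genes are near-identical copies: 35.5% of DEGs shared at least 50% of their 31-base words with another gene, against 13.8% of all tested genes, and the counts of such copies are uncertain. The counting's handling of strand and of multiply aligned reads is not given in the sources used here, so the counts of overlapping and antisense genes are uncertain too.

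**Figure D1:**
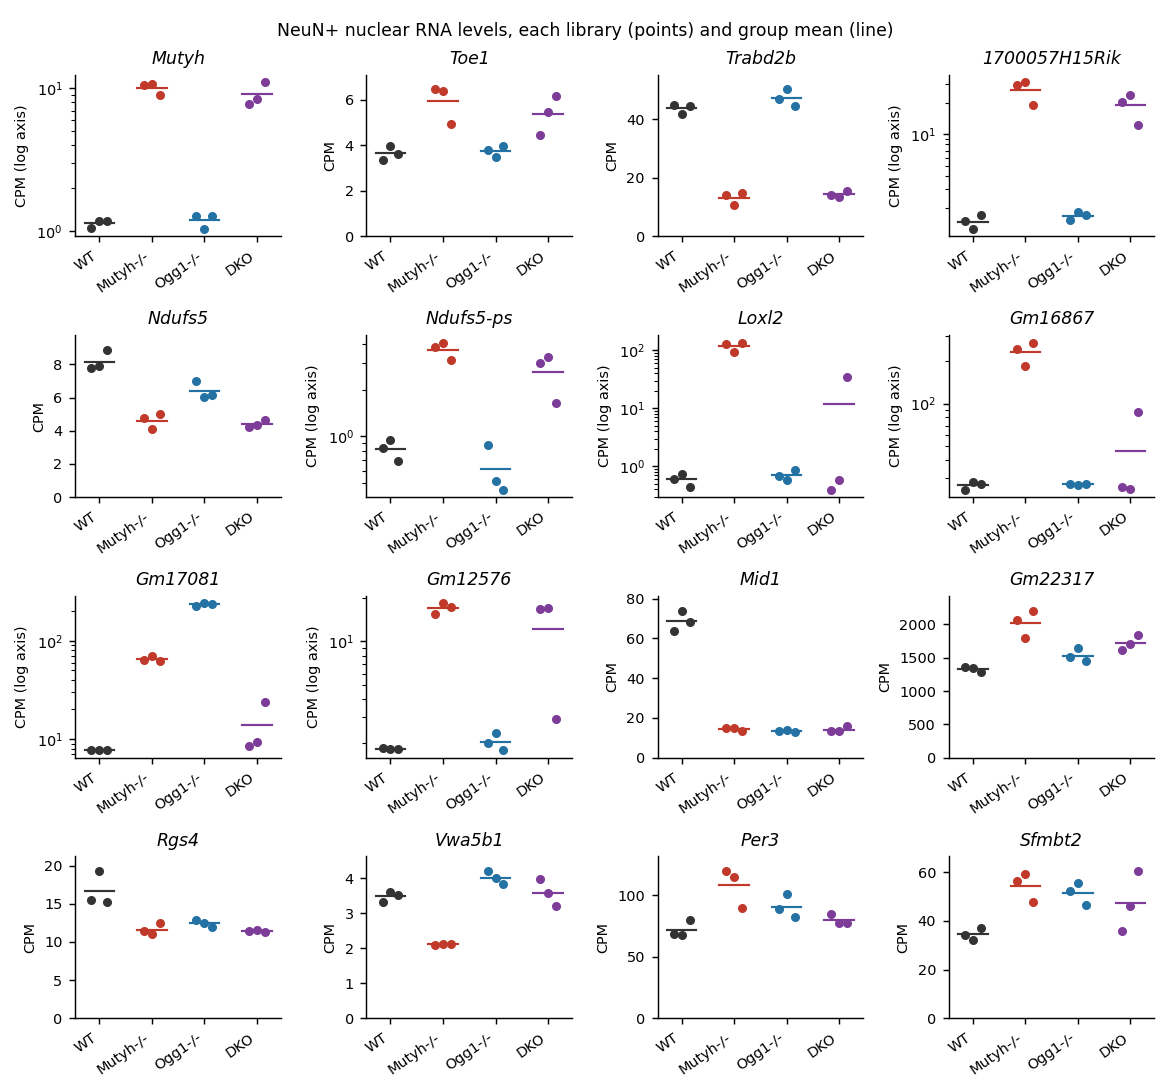
NeuN+ nuclear RNA levels of 16 genes in CPM, with 1 point per library and a line at the mean of each genotype (3 libraries each), on a log axis where so labelled. Mutyh, 1700057H15Rik and Ndufs5-ps are high and Trabd2b and Ndufs5 low in both Mutyh-/- and DKO, Loxl2 and Gm16867 are high in all 3 Mutyh-/- libraries and in 1 DKO library, and Mid1 is low in all 3 knockouts.

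Many DEGs lay around Mutyh itself. Within 10 Mb of the gene, 18 of 333 tested genes were DEGs (5.41%), 9 higher and 9 lower, beside 1.39% on the rest of chromosome 4 and 0.319% on the other chromosomes. All 18 had the same sign in DKO, which also carries the Mutyh-/- allele, as had 127 of all 129 DEGs, with an adjusted p under 0.05 in 14 (0.494% of all genes in that comparison), and none of the 18 differed between Mutyh-/- and DKO (edgeR's quasi-likelihood test, 0.163% of all genes at an adjusted p under 0.05). From Ogg1-/-, 17 of the 18 differed in the direction of the call, beside 0.654% of all genes in that comparison. Mutyh-/- and DKO share the WT controls here, while the direct comparisons of the knockouts do not use them. The direct comparisons reuse the Mutyh-/- libraries in which the 18 were called, which favours a difference in the direction of the call.

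Among the neighbours that were lower, Trabd2b encodes a membrane metalloprotease that inactivates Wnt ligands, and it lies 2.4 Mb before Mutyh. It had 45, 41.8 and 44.3 CPM in WT and 14.1, 10.8 and 14.8 in Mutyh-/- (log2 -1.72, standard error 0.10, adjusted p = 1.79e-07, edgeR's quasi-likelihood test). DKO libraries had 13.4 to 15.6 CPM and Ogg1-/- libraries 44.6 to 50.2, so that the groups with the Mutyh-/- allele and those without it did not overlap. Rab3b, a GTPase of synaptic vesicle release, had 13.4, 15 and 13.5 CPM in WT and 6.87, 6.16 and 7.78 in Mutyh-/-, so that it fell by 1.00 on the log2 scale (standard error 0.11, adjusted p = 1.82e-04). Elovl1, which elongates very long chain fatty acids, fell by 1.00 on the log2 scale and Mob3c by 0.74, calls that held in 2 and 1 of the 6 fits without 1 library. Skint1, a gene of skin and thymus that shapes γδ T cells, had 69 counts over the 3 WT libraries and 2 over the 3 Mutyh-/- libraries, a ratio of 33.7 with an exact 95% counting interval from 8.99 to 284. Its relative Skint11 had 5.35, 5 and 4.56 CPM in WT and 2.79, 2.85 and 3.11 in Mutyh-/- (log2 -0.77, adjusted p = 0.00164). The antisense transcript Gm12802 (log2 -1.92, adjusted p = 0.00102) and Zmynd12 (log2 -0.56, adjusted p = 0.00823) complete the lower side, with Ndufs5.

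On the higher side, Scp2, the sterol carrier protein of peroxisomes, had 22.5, 23 and 22.7 CPM in WT and 32.7, 31.8 and 32.7 in Mutyh-/- (log2 0.51, standard error 0.05, adjusted p = 4.54e-05, edgeR's quasi-likelihood test), with a NeuN- log2 of 0.45 (adjusted p = 0.00445). Zyg11a, a subunit of a ubiquitin ligase, had 0.223 to 0.307 CPM in WT and 0.538 to 0.995 in Mutyh-/- (log2 1.59, adjusted p = 0.0274), a call that held in 1 of the 6 fits without 1 library. The last 5 of the 9 higher genes were noncoding transcripts that start between 7.47 and 7.61 Mb after Mutyh. The most abundant, 1700057H15Rik, had 1.49, 1.26 and 1.7 CPM in WT and 29.2, 31.4 and 19 in Mutyh-/- (log2 4.16, standard error 0.25, adjusted p = 3.78e-07). Its DKO libraries had 20.4, 23.6 and 12.3 CPM and its Ogg1-/- libraries 1.54 to 1.81. The others were close to silent in WT: 1700021L23Rik had 2, 1 and 1 counts there and 1.52 to 2.31 CPM in Mutyh-/-, and 4933435F18Rik had 3 counts in WT and 179 in Mutyh-/-, a ratio of 61.0 (20.5 to 299). Gm37667 had 2 and 54 counts, a ratio of 27.6 (7.28 to 234), with a call in 3 of the 6 fits without 1 library, and Gm12916 had 0.0149 to 0.0307 CPM in WT and 0.799 to 0.934 in Mutyh-/-.

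**Figure D2:**
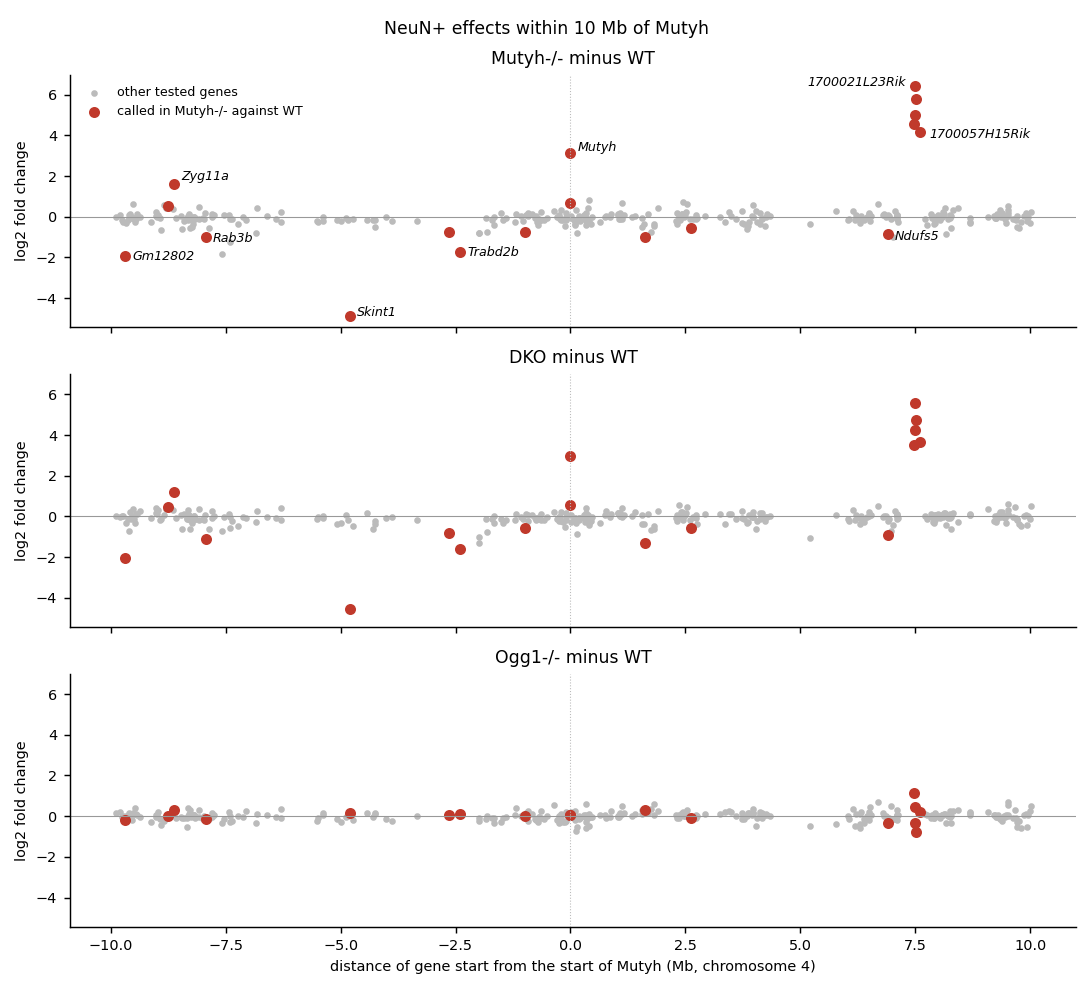
Log2 fold changes against WT of the 333 tested genes within 10 Mb of Mutyh in NeuN+ nuclei, by distance of the gene start from the start of Mutyh in Mb, for Mutyh-/-, DKO and Ogg1-/-. The 18 DEGs of Mutyh-/- (red) keep their direction in DKO, and in Ogg1-/- they lie between -0.79 and 1.12.

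Ndufs5, a small subunit of respiratory complex I 6.9 Mb after Mutyh, was the only DEG among 37 complex I genes. It had 7.77, 7.88 and 8.87 CPM in WT and 4.75, 4.07 and 4.99 in Mutyh-/- (log2 -0.82, standard error 0.10, adjusted p = 3.07e-04, edgeR's quasi-likelihood test). Ndufs5-ps, a pseudogene made from its messenger RNA on chromosome 16, moved the other way, from 0.847, 0.943 and 0.691 to 3.8, 4.07 and 3.14 CPM (log2 2.14, standard error 0.26, adjusted p = 4.72e-04). DKO showed both differences, with log2 values of -0.89 and 1.67. Summed over the pair, levels were 8.62, 8.82 and 9.56 CPM in WT and 8.55, 8.15 and 8.13 in Mutyh-/-, which did not overlap, and all 3 Ogg1-/- libraries lay below WT as well. The pair is printed because it differs at 2 of 319 bases from the start codon on, T81C and A105G in GENCODE vM21, counted from 1 at the A of the start codon with the base of Ndufs5 first, so that reads of either can be counted for the other. The first 120 bases of each follow, from chr4:123715960-123716079 on the minus strand and from chr16:42955631-42955750 on the plus strand, with capitals at the positions that differ.
Ndufs5: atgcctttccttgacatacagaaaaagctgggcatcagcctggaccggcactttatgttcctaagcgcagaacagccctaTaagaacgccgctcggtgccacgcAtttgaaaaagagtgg
Ndufs5-ps: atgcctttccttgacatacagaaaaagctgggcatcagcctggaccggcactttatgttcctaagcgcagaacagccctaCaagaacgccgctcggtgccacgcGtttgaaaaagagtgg

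The largest group lay on chromosome 14 between 69241848 and 70659244, where 18 of 53 tested genes were higher. Loxl2, called in 3 of the 6 fits without 1 library, encodes an enzyme that crosslinks collagen and elastin. It had 0.594, 0.734 and 0.445 CPM in WT and 126, 91.8 and 136 in Mutyh-/- (log2 7.63, standard error 1.22, adjusted p = 0.00786, edgeR's quasi-likelihood test). In DKO, replicates 1 and 2 had 0.394 and 0.579 CPM and replicate 3 had 34.1, so that the libraries of that genotype fell on both sides. Slc25a37, the iron importer of mitochondria, had 15, 16.4 and 15.7 CPM in WT and 60.1, 47.6 and 72.6 in Mutyh-/- (log2 1.94, standard error 0.21, adjusted p = 1.82e-04). Entpd4 and Entpd4b, copies of a Golgi nucleotidase gene, summed to 92.9 to 103 CPM in WT and 186 to 265 in Mutyh-/-. Gm16867 spans the stretch between them, with 24.8 to 28.3 CPM in WT and 183 to 269 in Mutyh-/- (log2 3.11, adjusted p = 3.07e-04). Gm38378 and Gm37513 had no count in any WT library and were at least 32.5-fold and 33.3-fold higher, against a floor of 3 counts per library, and each was called in 2 of the 6 fits without 1 library. Of the 18 genes, 14 were called in NeuN- nuclei, and 17 were higher than in Ogg1-/-.

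On chromosome 4 between 41809083 and 42612860, far from Mutyh, 16 of 31 tested genes were DEGs. They include Ccl21b and Ccl21d, gene copies of Ccl21, the chemokine that guides lymphocytes and dendritic cells through CCR7. The 16 are called the Ccl21 group below. All 16 were higher than in WT and lower than in Ogg1-/-, and all 16 were called in NeuN-. Gm17081, a pseudogene, had 7.8, 7.67 and 7.78 CPM in WT, 63.9, 70.1 and 62.3 in Mutyh-/- and 229, 242 and 239 in Ogg1-/-, an order with no overlap between these 3 genotypes. Its DKO libraries had 8.39, 9.43 and 24 CPM. Gm17167, the most counted, had 91.6 to 110 CPM in WT, 363 to 415 in Mutyh-/- and 1183 to 1314 in Ogg1-/-. With Gm3893 (log2 2.64), Gm13301 (2.54), Gm5859 (1.54), Gm13303 (1.33) and Gm3883 (0.77), these were the DEGs of this group with the smallest p. Ccl21b had 2.5 to 2.89 CPM in WT and 4.44 to 5.94 in Mutyh-/- (log2 0.94, standard error 0.14, adjusted p = 0.00321, edgeR's quasi-likelihood test). The median DEG of this group shared 95.8% of its 31-base words with other genes.

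Further large differences were found on chromosome 11 and in sets of 4 on each sex chromosome. Gm12576, a long noncoding RNA, had 1.86, 1.83 and 1.81 CPM in WT and 15.4, 18.4 and 17.3 in Mutyh-/- (log2 3.21, standard error 0.45, adjusted p = 0.00229, edgeR's quasi-likelihood test), with 16.7, 17.1 and 2.92 in DKO. Mid1, a ubiquitin ligase at the edge of the region that the X and Y chromosomes share, had 63.6, 74 and 68 CPM in WT and 14.8, 14.9 and 13.5 in Mutyh-/- (log2 -2.25, standard error 0.08, adjusted p = 5.21e-10). It was low too in Ogg1-/- (12.8 to 13.9 CPM, adjusted p = 1.26e-10, beside 1.1% of all genes past the threshold there) and in DKO (13.2 to 15.7), and 3 transcripts within its span were lower with it. Gm15726 had a log2 of -4.42, Gm15247 one of -4.12 and G530011O06Rik one of -2.75. Lower as well were 4 DEGs on Y, Mid1-ps1 among them, that shared at least 97.5% of their 31-base words with other genes. Between Mutyh-/- and Ogg1-/-, Mid1 differed by 0.11 on the log2 scale (adjusted p = 0.593).

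Among the small nuclear RNAs, 3 copies of U1, the RNA with which the spliceosome recognizes the start of an intron, were higher. Gm22317 had 1365, 1338 and 1279 CPM in WT and 2071, 1799 and 2208 in Mutyh-/- (log2 0.61, standard error 0.07, adjusted p = 3.65e-04, edgeR's quasi-likelihood test), Gm25679 had a log2 of 0.64 (adjusted p = 0.0212), and Gm24305 had 0.56 (adjusted p = 0.0184). All 3 lie on the minus strand of chromosome 12 within 19.5 kb. Other copies, with the same sequence as Gm22317 on the plus strand there and on chromosome 11, had log2 values of 0.29 to 0.48 without a call. Copies with substitutions were not called either. Of these, Gm22513 on that plus strand had a log2 of 0.83 (adjusted p = 0.194, edgeR's quasi-likelihood test). Gm23238 on chromosome 19 had 0.76 (adjusted p = 0.0546, same test) and Gm23686 on chromosome 3 had 0.25. Of the called copies, Gm22317 held its call in all 6 fits without 1 library and the others in 2. Over 11 copies with at most 10 differences from Gm22317, the sum was 12848 to 13824 CPM in WT and 15913 to 21591 in Mutyh-/-. It was 13122 to 14217 in Ogg1-/- and 15499 to 16550 in DKO, whose libraries all lay above WT too. The 3 called copies are printed because they are nearly the same. Gm25679 and Gm22317 are identical, so that reads cannot be assigned between them. Gm24305 carries A26G, counted from 1 at the 5′ end, and only reads that cover this base can tell it from the other 2. Capitals mark that position (chr12:54719163-54719326, chr12:54734555-54734718 and chr12:54738459-54738622).
Gm25679: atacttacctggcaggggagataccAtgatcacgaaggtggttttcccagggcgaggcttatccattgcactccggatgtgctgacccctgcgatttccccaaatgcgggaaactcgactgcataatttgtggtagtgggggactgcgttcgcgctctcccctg
Gm24305: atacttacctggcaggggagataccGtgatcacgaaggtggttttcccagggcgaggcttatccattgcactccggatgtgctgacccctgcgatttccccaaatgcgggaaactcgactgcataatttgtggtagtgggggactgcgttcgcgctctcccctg
Gm22317: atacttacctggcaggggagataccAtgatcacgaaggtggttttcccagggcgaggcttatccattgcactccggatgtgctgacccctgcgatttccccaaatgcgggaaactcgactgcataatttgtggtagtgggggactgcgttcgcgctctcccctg

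The 54 DEGs away from any other, 32 higher and 22 lower, had smaller differences, with a median absolute log2 of 0.68. In NeuN-, where 51 were tested, their median was 0.25 in the direction of the call, and 45 had its sign. Only 9 of the 54 were called in every fit without 1 library, beside 41 of the 58 in groups. Of the genes named next, Vwa5b1, Myo1f and 9130204K15Rik held in all 6 of these fits, Cdh23 in 4 and Rgs4 in 3, and the others in 1 or 2. Rgs4, which shortens G-protein signalling, had 15.5, 19.3 and 15.2 CPM in WT and 11.4, 11 and 12.5 in Mutyh-/- (log2 -0.52, standard error 0.08, adjusted p = 0.00846, edgeR's quasi-likelihood test), and it was as low in DKO (11.3 to 11.6 CPM). Ano2, a calcium-gated chloride channel, had 24.4 to 29.2 CPM in WT and 16.2 to 20.2 in Mutyh-/- (log2 -0.59, adjusted p = 0.021), and 13.5 to 17 in both other knockouts. Acan, the core proteoglycan of perineuronal nets, had 4.53, 3.59 and 3.64 CPM in WT and 2.71, 2.27 and 2.52 in Mutyh-/- (log2 -0.65, standard error 0.14, adjusted p = 0.0464), while its Ogg1-/- and DKO libraries, with 3.23 to 4.4 CPM, overlapped WT.

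Further lower genes differed in how far the other knockouts followed. Vwa5b1, which starts 21.7 Mb after Mutyh, had 3.33, 3.61 and 3.53 CPM in WT and 2.1, 2.13 and 2.12 in Mutyh-/- (log2 -0.72, standard error 0.10, adjusted p = 0.00225, edgeR's quasi-likelihood test). It differed from both Ogg1-/- (adjusted p = 1.01e-04) and DKO (adjusted p = 0.00234), and it was called in every fit without 1 library. Cdh23, a cadherin of hair-cell tip links, had 8.12 to 10.4 CPM in WT and 5.3 to 6.07 in Mutyh-/- (log2 -0.66, adjusted p = 0.012), and differed from Ogg1-/- (adjusted p = 0.014). Cd59a, which protects cells from complement, fell by 1.00 on the log2 scale and by 1.30 and 1.35 in Ogg1-/- and DKO. Heg1, a receptor of endothelial junctions, fell by 0.53. In a pair on chromosome 3, the peroxisomal oxidase gene Hao2 fell by 0.97 and Hsd3b6, of steroid synthesis, by 1.24, and both were lower than in Ogg1-/-.

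Among the higher genes that stood alone, Per3, a period protein of the circadian clock, had 68.8, 67.4 and 80 CPM in WT and 120, 115 and 90 in Mutyh-/- (log2 0.58, standard error 0.10, adjusted p = 0.0129, edgeR's quasi-likelihood test). Nsdhl, an enzyme of cholesterol synthesis, had 12.5 to 14.9 CPM in WT and 18.6 to 21.4 in Mutyh-/- (log2 0.58, adjusted p = 0.0172), the only DEG of 18 cholesterol genes. Sfmbt2, a Polycomb-group protein, had 34, 32 and 37.3 CPM in WT and 56.5, 59.2 and 47.7 in Mutyh-/- (log2 0.66, standard error 0.14, adjusted p = 0.0486). In each of these 3 genes, replicate 3 was the lowest of its group. Higher too were Dmc1, a recombinase of meiosis (log2 0.89, adjusted p = 0.0274), and Traip, a ubiquitin ligase at stalled replication forks (log2 0.58, adjusted p = 0.047). So were Cyren, a regulator of end joining (log2 0.61, adjusted p = 0.0414), the ETS factor Etv4 (log2 1.01, adjusted p = 0.0369), and Myo1f, an unconventional myosin of leukocytes (log2 0.89, adjusted p = 0.00436). The long noncoding RNA 9130204K15Rik had 1.31, 1.21 and 1.55 CPM in WT and 2.71, 2.51 and 2.85 in Mutyh-/- (log2 0.99, adjusted p = 0.00121), and 2.55 to 2.99 in DKO. Stra6, the receptor that takes up vitamin A, overlaps Ccdc33 on the other strand, and both were higher (log2 0.59 and 0.66, adjusted p = 0.0274 and 0.021), each also against Ogg1-/-.

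**Figure D3:**
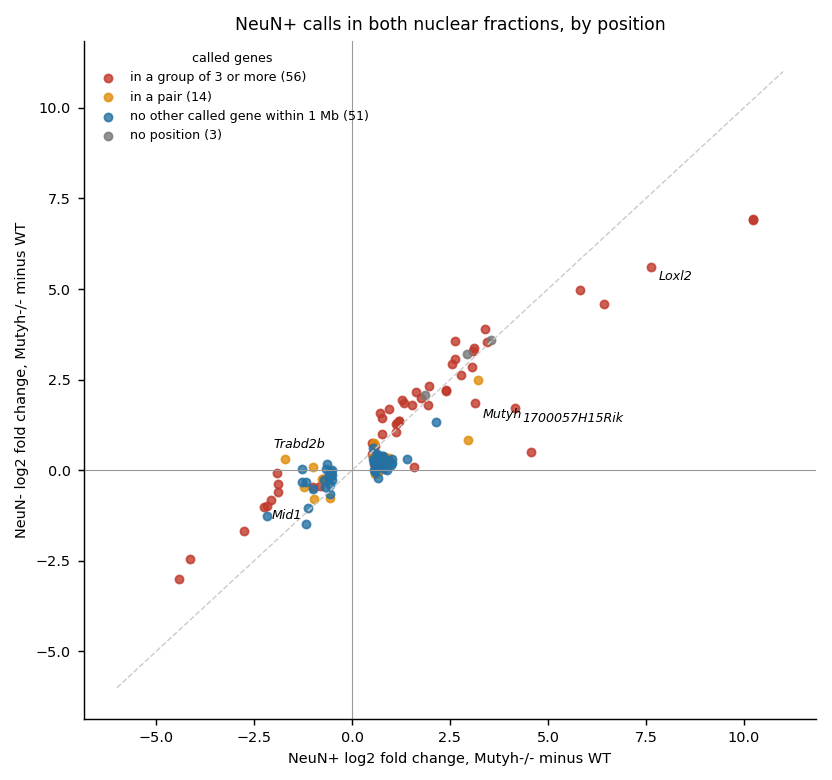
Log2 fold changes of Mutyh-/- over WT in NeuN+ (horizontal) and NeuN- nuclei (vertical) for the 124 NeuN+ DEGs that were also tested in NeuN-, coloured by how many called genes lie in the same chain of gaps of at most 1 Mb. Most genes in groups of 3 or more lie along the dashed line of equal effect, and the 51 that stand alone lie between -1.47 and 1.33 on the NeuN- axis, with a median of 0.25 in the direction of the call.

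Several gene lists lay mostly below 0 with few calls. Over all 30132 tested genes the median log2 was -0.01, and 15636 had a log2 below 0. The cytoskeleton of growing and adult axons is built from tubulins, actins and their binding proteins, and 19 of 20 such genes had a log2 below 0, with a median of -0.34 and 15 at an unadjusted p under 0.05 lower (9.21% of all genes were). Tmsb10, which binds actin monomers, was the DEG, called in 4 of the 6 fits without 1 library, with 6.27, 7.68 and 6.8 CPM in WT and 4.94, 4.51 and 4.48 in Mutyh-/- (log2 -0.58, standard error 0.10, adjusted p = 0.0104, edgeR's quasi-likelihood test). The median of this list was -0.44 in Ogg1-/- and -0.43 in DKO, and -0.14 in the NeuN- comparison. Without replicate 3 it was -0.21.

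Genes of energy metabolism and protein synthesis also lay mostly below 0. The median log2 was -0.24 for 17 glycolysis genes (15 below 0), -0.14 for 20 genes of the citrate cycle and pyruvate entry, -0.12 for complex I, -0.18 for 34 genes of complexes III to V (32 below 0) and -0.18 for 79 cytosolic ribosomal proteins (69 below 0). Apart from Ndufs5, no member was a DEG. The other knockouts, set against the same WT libraries, had similar medians. For Ogg1-/- and DKO these were -0.30 and -0.32 in glycolysis, and -0.11 and -0.13 in the citrate cycle. They were -0.13 and -0.16 in complex I, -0.27 and -0.23 in complexes III to V, and -0.35 and -0.29 in ribosomal proteins. Tpi1, which interconverts the triose phosphates, had 17, 20.5 and 18.3 CPM in WT and 15.2, 15.5 and 11.9 in Mutyh-/- (log2 -0.39, standard error 0.11, adjusted p = 0.0942), and Pgam1, the next mutase of glycolysis, had a log2 of -0.37 (adjusted p = 0.0745, edgeR's quasi-likelihood test). In replicate 3 the median level relative to WT was -0.37 for glycolysis and for ribosomal proteins, and without that library the fitted medians were -0.15 and -0.09, with -0.05 for complex I and -0.12 for complexes III to V. Suclg2 of the citrate cycle was called lower without it. Across protein-coding genes at 1 CPM or more, the median log2 went from -0.05 in 2843 genes spanning under 10 kb to 0.03 in 558 spanning over 300 kb, and the part of gene length or RNA quality in the lists was not tested.

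Of 20 antioxidant genes, 17 had a log2 below 0, with a median of -0.21. At an unadjusted p under 0.05, 10 were lower (9.21% of all genes were) and 1 was higher (9.48%). Sod2, the superoxide dismutase of mitochondria, was the one member past the adjusted threshold, and it was higher, with 111, 111 and 118 CPM in WT and 139, 144 and 127 in Mutyh-/- (log2 0.27, standard error 0.06, adjusted p = 0.0464, edgeR's quasi-likelihood test), below the fold limit for a DEG. Prdx1, a peroxiredoxin of the cytosol, had 5.5 to 6.21 CPM in WT and 3.86 to 4.6 in Mutyh-/- (log2 -0.45, adjusted p = 0.108). The median of the list was -0.26 in Ogg1-/- and -0.27 in DKO, and -0.04 in the NeuN- comparison.

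In base excision repair, none of the 13 genes that act after the glycosylase was a DEG, and their median log2 was 0.00. At an unadjusted p under 0.05 were 5 of them (18.7% of all genes were), and none passed the adjusted threshold. Polb, the polymerase that fills the gap, had a log2 of 0.23 (adjusted p = 0.108) and Lig1, a ligase that seals it, one of -0.42 (adjusted p = 0.105, edgeR's quasi-likelihood test). Of 11 DNA glycosylases, Mutyh was the DEG. Ogg1 had 2.54, 3.49 and 3.1 CPM in WT and 2.68, 2.99 and 2.65 in Mutyh-/- (log2 -0.14, standard error 0.12, adjusted p = 0.571). The 4 nudix hydrolases of oxidized nucleotides and 13 tested p53 targets held no DEG, and the medians were 0.01 and 0.02. Neither the 12 PRC2 genes, which write the repressive H3K27 methylation mark (median 0.06), nor the 11 genes of DNA methylation (median -0.01) held one, but without replicate 3 the methyltransferase gene Dnmt3b was called lower (log2 -0.93, and -0.73 with an adjusted p of 0.0542 in the fit of all libraries by edgeR's quasi-likelihood test).

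**Figure D4:**
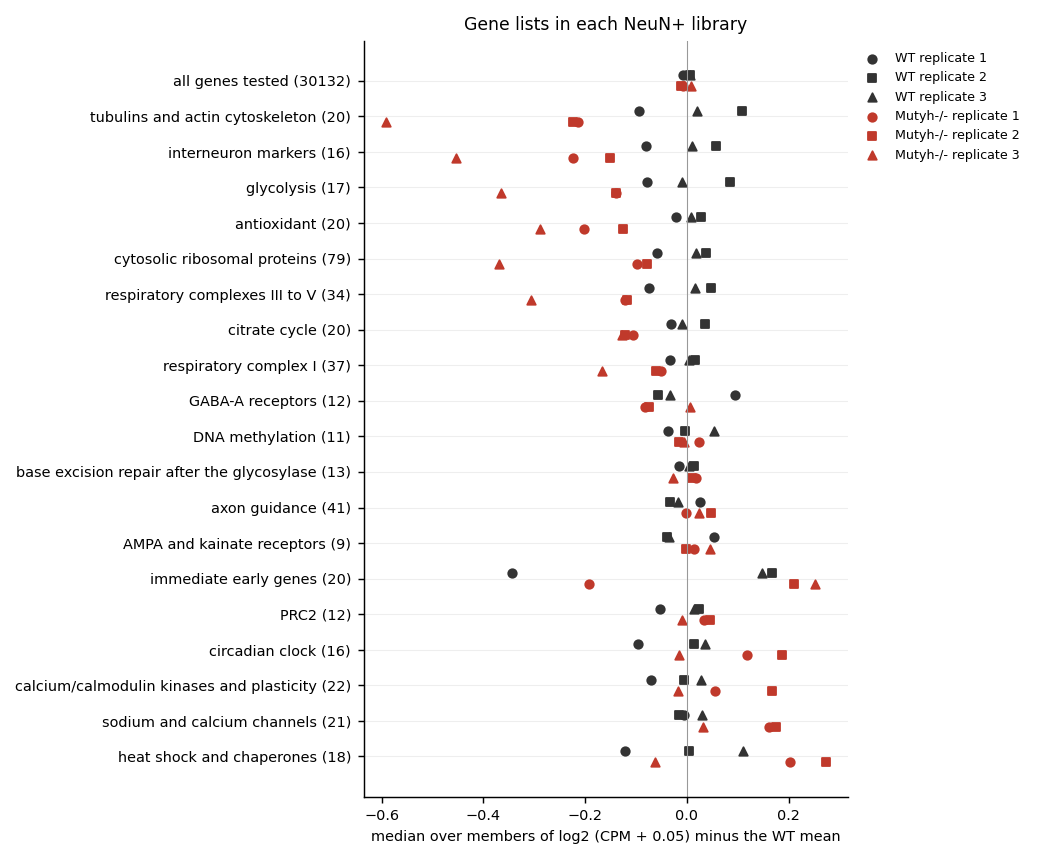
Median over the members of each gene list, in each NeuN+ library, of the log2 of CPM plus 0.05 minus the mean of the WT libraries, with the number of tested genes in parentheses. Mutyh-/- replicate 3 (red triangles) has the lowest value in the cytoskeleton, interneuron, glycolysis, antioxidant and ribosomal lists. It lies below Mutyh-/- replicates 1 and 2 in the chaperone, sodium and calcium channel, and clock lists, where those lie above every WT library.

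Sodium and calcium channel genes and chaperone genes lay more often above 0, and there replicate 3 was nearer to WT. Of 21 sodium and calcium channel genes 18 had a log2 above 0, with a median of 0.12 and 10 at an unadjusted p under 0.05 higher (9.48% of all genes). The median of this list was 0.06 in Ogg1-/-, 0.11 in DKO and -0.13 in NeuN-. For 28 potassium channel genes the NeuN+ median was 0.03. Of 18 tested chaperones 12 had a log2 above 0, with a median of 0.14, beside -0.21 in Ogg1-/-, -0.14 in DKO and 0.58 in NeuN-. Cacna1c, the pore of an L-type calcium channel, had 1682, 1677 and 1699 CPM in WT and 1953, 2090 and 1734 in Mutyh-/- (log2 0.19, standard error 0.06, adjusted p = 0.114, edgeR's quasi-likelihood test). Among chaperones, Hspa5, the main Hsp70 of the endoplasmic reticulum, had 25.5, 26.9 and 30.8 CPM in WT and 59, 60.4 and 35.4 in Mutyh-/- (log2 0.89, standard error 0.22, adjusted p = 0.0678). Hsp90b1, Calr and Pdia3, which fold proteins in the same compartment, had log2 values of 0.58, 0.55 and 0.56, and in each replicate 3 was the lowest Mutyh-/- library, as in Hspa5. Without replicate 3 all 4 were called, with log2 values from 0.71 to 1.11. At the synapse, Syn3, a synapsin, was higher (log2 0.25, adjusted p = 0.0339) and Cplx1, a complexin of fast release, lower (log2 -0.32, adjusted p = 0.0488), and the kainate receptor subunit Grik1 was lower (log2 -0.23, adjusted p = 0.0274), all below the fold limit. Cplx1 was lower in NeuN- too (log2 -0.40, adjusted p = 0.00583). The 7 NMDA and 12 GABA-A receptor genes held no DEG and no member past the adjusted threshold, nor did the 20 immediate early genes (medians -0.05, -0.06 and 0.02).

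Markers of inhibitory neurons were mostly below 0. Of 16, 12 had a log2 below 0, with a median of -0.31 and 10 at an unadjusted p under 0.05 lower (9.21% of all genes were). The median of this list was -0.17 in Ogg1-/- and -0.23 in DKO. Lhx6, the homeobox factor of interneurons from the medial ganglionic eminence, had 6.55, 6.74 and 6.89 CPM in WT and 5.25, 4.89 and 4.26 in Mutyh-/- (log2 -0.49, standard error 0.09, adjusted p = 0.0162, edgeR's quasi-likelihood test), just under the fold limit. Gad2, an enzyme of GABA synthesis, had 43.8, 43.1 and 40.4 CPM in WT and 33.8, 37.5 and 27.8 in Mutyh-/- (log2 -0.36, adjusted p = 0.0637), and Calb2, calretinin, had 4.14 to 5.12 and 2.24 to 3.52 (log2 -0.67, adjusted p = 0.0529). In sorted nuclei, fewer nuclei of a type and less RNA per nucleus cannot be told apart. The summed level of all 16 markers overlapped between groups, at 1309 to 1396 CPM in WT and 1299 to 1413 in Mutyh-/-. Sums of the markers of dentate gyrus, CA1, CA3 and CA2, thalamus and striatum overlapped as well, and so did those of oligodendrocytes, astrocytes, microglia, vessels and choroid plexus. By single genes, all 6 astrocyte markers had a log2 below 0 (median -0.22). The 6 tested choroid plexus markers had a median of -0.51, and of -0.87 in NeuN-. In NeuN+, 3 of them were lower at an unadjusted p under 0.05 (9.21% of all genes were). Without replicate 3 their NeuN+ median was -0.85, and Enpp2 (log2 -0.52) and Kcne2 (log2 -1.92) were called. The part of these cells in the results was not tested.

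The knockouts were also compared directly. From Ogg1-/-, 76 of the 129 DEGs differed, beside 0.654% of all genes at an adjusted p under 0.05. In 57 of these Mutyh-/- was farther from WT, while in 19, among them the 16 of the Ccl21 group, Ogg1-/- was farther. From DKO, 28 differed, beside 0.163% of all genes, each with Mutyh-/- on the far side. Of these, 10 lay in the chromosome 14 group and 13 in the Ccl21 group. The DEGs were chosen for their distance from WT in the same Mutyh-/- libraries, which favours Mutyh-/- on the far side in both comparisons. Of the 54 DEGs that stood alone, 16 differed from Ogg1-/- and 2 from DKO.

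The effect of the genotype differed between NeuN+ and NeuN- nuclei in 7 of 33523 genes (0.0209%) at an adjusted p under 0.05, and at an unadjusted p under 0.05 in 8.58%. With the replicate number as a block within genotype, which pairs the fractions, the test found 31 genes. Trabd2b missed that threshold (difference of the log2 effects -2.04, adjusted p = 0.105, edgeR's quasi-likelihood test). It fell in NeuN+, and in NeuN- it had 13.2 to 14.4 CPM in WT and 11.9, 14.4 and 25 in Mutyh-/-. Maf, a leucine-zipper factor of interneurons and macrophages, had 16.2, 16 and 15.2 CPM in WT neurons and 12.4, 12.5 and 11.8 in Mutyh-/- (log2 -0.37, adjusted p = 0.00954, edgeR's quasi-likelihood test), against 33.3 to 39.3 and 38.6 to 41.8 in NeuN- nuclei. Itga9, an integrin subunit, had 8.84 to 11 CPM in WT neurons and 6.91 to 7.36 in Mutyh-/- (log2 -0.45, adjusted p = 0.036), and a NeuN- log2 of 0.41 (adjusted p = 0.158). Zfp69, a zinc finger protein, had a log2 of 0.17 in NeuN+ (adjusted p = 0.245) and of -0.67 in NeuN- (adjusted p = 0.0197). Gm10248 and Gm27882, next below the threshold, had NeuN+ log2 values of -0.70 and 0.05 without a call.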

How the data were processed

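Nuclear RNA of NeuN+ and NeuN- sorted hippocampal nuclei had been sequenced in 24 libraries, 3 per genotype and fraction. Per the methods and the submitters' processing notes, the authors aligned read pairs to GRCm38/mm10 with HISAT2 (version 2.1.0), used SAMtools (version 1.10), counted pairs per gene with featureCounts against Ensembl release 102 and deposited raw counts per gene and library. From these counts, genes kept by edgeR's filterByExpr were normalised with TMM factors, fitted over all 4 genotypes of a fraction and tested with edgeR's quasi-likelihood test (edgeR version 4.0.16, R version 4.3.3), with Benjamini-Hochberg adjustment over all genes tested. The difference between fractions was tested as an interaction in 1 fit over both. Depth is given in the report, and 10 DEGs had under 1 CPM in both groups. All columns were mapped to a sample (0 were not). DESeq2 (version 1.42.0), limma-voom (limma version 3.58.1), other scalings, filters, fold limits, a replicate block and fits without each library were alternatives. 

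Genes named are Mutyh and Ogg1, in each direction the 12 non-overlapping DEGs of lowest p, DEGs within 10 Mb of Mutyh, called members of 48 gene lists or otherwise up to 4 members with the smallest p, the 10 genes with the smallest interaction p, and markers. Named beyond this rule, after their values were seen, were the DEGs of chromosomes 3, 9, 11, 12 and 14 that lie in groups or pairs, Ccl21b, Ndufs5-ps, Rgs4, Ano2, Cdh23, Cd59a, Heg1, Sfmbt2, Dmc1, Traip, Cyren, Etv4 and Myo1f. The comparison, lists and rule were chosen with earlier results of these data known. Positions come from GENCODE vM21 by symbol (Ccl21d and Ndufs5-ps from RefSeq), sequences from GENCODE vM21 and RefSeq on GRCm38. Genes of the mitochondrial genome were not analysed here. The scripts were tested on simulated data.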

Additional observations from a re-analysis of the deposited data

Results flagged for a closer look

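In 7 genes the effect of the genotype differed between NeuN+ and NeuN- nuclei (edgeR's quasi-likelihood test of the interaction, Benjamini-Hochberg adjusted p under 0.05). Values are the NeuN+ minus the NeuN- effect on the log2 scale. Fraction and lane cannot be told apart.

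Mutyh (1.28, adjusted p = 0.0110) had 2.60 to 3.07 CPM in WT and 10.1 to 10.5 in Mutyh-/- NeuN- nuclei, so that the Mutyh-/- levels of both fractions were close and the WT level was higher in NeuN-. For 1700057H15Rik (2.42, adjusted p = 0.00553) NeuN- levels were 2.22 to 3.32 and 8.43 to 9.37 CPM. For Mid1 (-1.26, adjusted p = 0.00565) they were 82.3 to 92.7 and 37.6 to 47.6 CPM.

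Maf (-0.55, adjusted p = 0.0158) and Itga9 (-0.87, adjusted p = 0.0200) were lower in NeuN+ nuclei of Mutyh-/-, and in NeuN- Itga9 had 135 to 143 CPM in WT and 163 to 198 in Mutyh-/-. Zfp69 (0.83, adjusted p = 0.0200) had 13.3 to 14.5 and 8.59 to 8.96 CPM in NeuN-. The long noncoding RNA 9130204K15Rik (0.84, adjusted p = 0.0341) had 6.71 to 8.05 and 7.66 to 8.24 CPM there, which overlapped.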

How the results depend on the processing

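The number of DEGs depended on the settings more than the direction of any named gene did: over the named genes, 163 values lost the threshold and 983 did not, with none reversed. Calls gained, as by Hspa5 without Mutyh-/- replicate 3, were not counted as a class of their own. DEG counts (all, higher, lower) were 63, 44 and 19 at an absolute log2 above 1, 625, 373 and 252 without a low-count filter, 398, 246 and 152 with DESeq2, 564, 321 and 243 with the likelihood ratio test, and 272, 175 and 97 with only WT and Mutyh-/- libraries in the fit. Lower DEGs numbered 67 without a fold limit and 66 with library sizes alone. Leaving out 1 library gave 62 to 837 DEGs, 45 to 410 higher and 16 to 427 lower. With at least 10 counts in every library and without Mutyh-/- replicate 3, a combination chosen after seeing the data, there were 804, 386 and 418. RLE factors gave 130, upper-quartile factors 155, the filter at 10 counts 128 and limma-voom 101. Taking the genes within 10 Mb of Mutyh out of the main result, without a new fit, left 111.

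NeuN+ DEGs also called in NeuN- numbered 73 with the likelihood ratio test and 20 to 44 without 1 library (20, 23 and 24 without NeuN- WT replicates 1, 2 and 3). NeuN+ DEGs that also differ from Ogg1-/- numbered 219 without a filter, 124 with DESeq2, 167 with the likelihood ratio test and 49 to 369 without 1 library. NeuN+ DEGs that also differ from DKO numbered 64 without a filter, 49 with the likelihood ratio test and 26 to 60 without 1 library. Interaction genes numbered 12 without a filter, 75 with DESeq2, 64 with the likelihood ratio test, 3 with limma-voom and 2 to 95 without 1 library, the highest without NeuN- Mutyh-/- replicate 3. The causes were not tested. List medians moved by more than the spread between replicates in 43 of their recomputed values and by less in 756.

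The replicate numbers did not pair WT with Mutyh-/- libraries, whose same-numbered deviations correlated at -0.125, -0.026 and -0.307. Between NeuN+ and NeuN- libraries of the same number they correlated at 0.126, 0.214 and 0.322 in Mutyh-/- and at -0.0037, 0.039 and 0.164 in WT, so that the numbers paired the fractions in Mutyh-/- and not clearly in WT. With the replicate block, 113 DEGs were called (77 higher, 36 lower), 98 of them among the 129, and 31 genes passed the interaction test. Counts near 0 and genes with near-identical copies are uncertain, and with 3 libraries a group small differences can be missed.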
